A study of Mus musculus with 17 samples.

Results

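The clustered protocadherins are neuronal cell-surface adhesion proteins encoded in a tandem alpha, beta and gamma array. In the mouse the array lies on chromosome 18, and in GRCm38 its members span positions 36930184 to 37841873 on the plus strand. They were taken as every gene of the count table on that chromosome whose symbol begins with Pcdha, Pcdhb, Pcdhga, Pcdhgb or Pcdhgc followed by a number, or with Pcdhac. This gave 58 of 55385 genes, with 14 in the alpha, 22 in the beta and 22 in the gamma cluster. The alpha cluster held 12 alternate members and 2 C-type members. The gamma cluster held 12 gamma A, 7 gamma B and 3 C-type members. Levels came from polyadenylated RNA of the hippocampus of 17 mice aged 17.1 to 18.0 weeks, with 1 library per mouse. Of these, 6 mice (3 females) carried Dp16, a duplication of a segment of chromosome 16 used as a model of trisomy of human chromosome 21. A further 5 mice (3 females), named Dp16_2xIFNRs, carried Dp16 with the interferon receptor genes back at normal dosage. The remaining 6 mice (3 females) were wild-type C57BL/6J (WT). The array lies outside the duplicated segment.

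In a single neuron only some of the array's promoters are active, and the choice among the alternate promoters is largely random. It depends on looping between the promoter and distal enhancers by CTCF and cohesin, and silent promoters are methylated. In the alpha and gamma clusters the chosen variable exon, which encodes the extracellular cadherin domains, is spliced to constant exons shared by the whole cluster. Beta genes have a single coding exon and no constant exons. Matching sets of isoforms on 2 membranes bind each other, which lets a neuron tell its own branches from those of other neurons. The C-type members are regulated apart from the alternate members and do not follow the same random choice. A level measured in bulk tissue averages over many cells, so a change in the number of neurons that choose a promoter and a change in RNA per neuron cannot be told apart.

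Libraries held 30.4 to 33.1 M counts in Dp16, 30.7 to 31.6 M in Dp16_2xIFNRs and 30.4 to 32.9 M in WT (M for mega), of which 16518 to 18981 per library fell on the 58 members. The labels held at the interferon receptors. Ifnar1 was 1.56-fold and Ifngr2 1.57-fold WT in Dp16 (edgeR adjusted p = 8.8e-07 and 3.9e-06), against 1.11-fold and 0.986-fold WT in Dp16_2xIFNRs (adjusted p = 0.181 and 0.906). App, which is duplicated but is no receptor gene, was 1.55-fold WT in Dp16 and 1.48-fold WT in Dp16_2xIFNRs. Markers of choroid plexus, a non-neuronal epithelium beside the hippocampus, set 3 libraries apart, 1 in each group. Their mean log2 CPM over the 10 markers was 1.61 to 2.51 in Dp16 replicate 6, Dp16_2xIFNRs replicate 5 and WT replicate 6, against 5.88 to 7.0 in the other 14 libraries. WT replicate 6 also had the highest summed protocadherin level of all 17 mice, and values without these 3 libraries are given beside the results they touch.

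How far a count names a single member depends on how much of its exon sequence is its own. Bases that belong to no other gene of the strand made up a median of 46.4% of an alpha member's exon sequence, 100% of a beta member's and 55.3% of a gamma member's. The rest of an alpha or gamma member is mainly the constant exons. Levels between members are therefore compared as CPM (counts per M of the scaled library size) per kilobase of unique exon sequence. Pcdha4 kept only 494 unique bases, and it overlaps the annotated readthrough gene Gm42416 on its strand. That gene and 2 other readthrough genes of the array, Gm37013 and Gm37388, have no exon bases of their own and had 0 counts in all 17 libraries. A further gene of the plus strand, the lncRNA Gm38182, also had no exon bases of its own in the annotation used here, but it had 16 to 35 counts in every library, so the counts did not follow these unique bases at every gene. The name Pcdha11 is carried by 2 identifiers in the deposited counts, ENSMUSG00000007440.10 and ENSMUSG00000102206.5, and they were kept apart. Some variable exons resemble each other, and the share of windows of 100 bases found again in another gene reached 12.2% in Pcdha6, 9.80% in Pcdhgb2 and 9.63% in Pcdhgb1, so those values are less certain.

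Per kilobase, the C-type members Pcdhgc3 and Pcdhgc5 stood above all others. Pcdhgc3 (an isoform known to promote dendrite branching) averaged 19.9 ± 1.51 CPM per kilobase in Dp16, 18.9 ± 0.565 in Dp16_2xIFNRs and 20.4 ± 1.01 in WT (SD, n = 6, 5 and 6). Pcdhgc5, which binds GABA-A receptors, averaged 18.1 ± 1.16, 18.4 ± 1.35 and 16.6 ± 1.58 CPM per kilobase in Dp16, Dp16_2xIFNRs and WT. Pcdhgc3 was the higher of this pair per kilobase in 13 of 17 mice, so their order was not the same in every mouse. The order also depends on the length used. In CPM Pcdhgc5 had the higher mean over all mice, 81.3 against 66.9. Unique bases were 4606 for Pcdhgc5 and 3380 for Pcdhgc3, whereas the lengths implied by the deposited RPKM were 4741 and 4687 bases. Both exceeded Pcdhga11, the next gamma member at 8.50 CPM per kilobase over all mice, in 17 of 17 mice. The third gamma C-type member, Pcdhgc4, which supports neuron survival, had 2.83 ± 0.122 CPM per kilobase in Dp16, 2.66 ± 0.169 in Dp16_2xIFNRs and 2.76 ± 0.177 in WT, which is below the gamma median of 3.26.

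In the alpha cluster Pcdhac2, known for the spacing of serotonergic axons, dominated. It had 11.4 ± 0.850 CPM per kilobase in Dp16, 10.6 ± 0.996 in Dp16_2xIFNRs and 9.71 ± 1.34 in WT, and it lay above Pcdha12, the next member, in 17 of 17 mice. It took a median of 46.6% of all alpha CPM in Dp16, 48.1% in Dp16_2xIFNRs and 47.2% in WT. Pcdhac1, the other C-type member of the cluster, had 1.30 ± 0.283, 1.17 ± 0.201 and 1.11 ± 0.183 CPM per kilobase in Dp16, Dp16_2xIFNRs and WT, close to the alpha median of 1.19. The alternate alpha members ran from 0.166 (Pcdha8) to 2.64 (Pcdha12) CPM per kilobase over all mice. Pcdha8 was lowest, with 4 to 34 counts in Dp16, 9 to 19 in Dp16_2xIFNRs and 3 to 15 in WT.

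In the beta cluster Pcdhb9 was the highest, with 4.85 ± 0.334 CPM per kilobase in Dp16, 4.53 ± 0.377 in Dp16_2xIFNRs and 4.76 ± 0.574 in WT, above Pcdhb17 in 17 of 17 mice. The cluster median was 1.49 CPM per kilobase over all mice. Pcdhb1 was near the floor of the assay, with 0 to 14 counts in Dp16, 5 to 11 in Dp16_2xIFNRs and 1 to 7 in WT, and was left out of the tests by the filter on low counts, so 57 of 58 members were tested. Within the gamma cluster the gamma A members had a median of 3.45 and the gamma B members of 2.49 CPM per kilobase. Pcdhgb8 was lowest, at 0.410 over all mice. Neighbours in the middle of each order changed places from mouse to mouse, for example Pcdhb14 and Pcdhb11, of which Pcdhb14 was the higher in 8 of 17 mice.

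**Figure D1:**
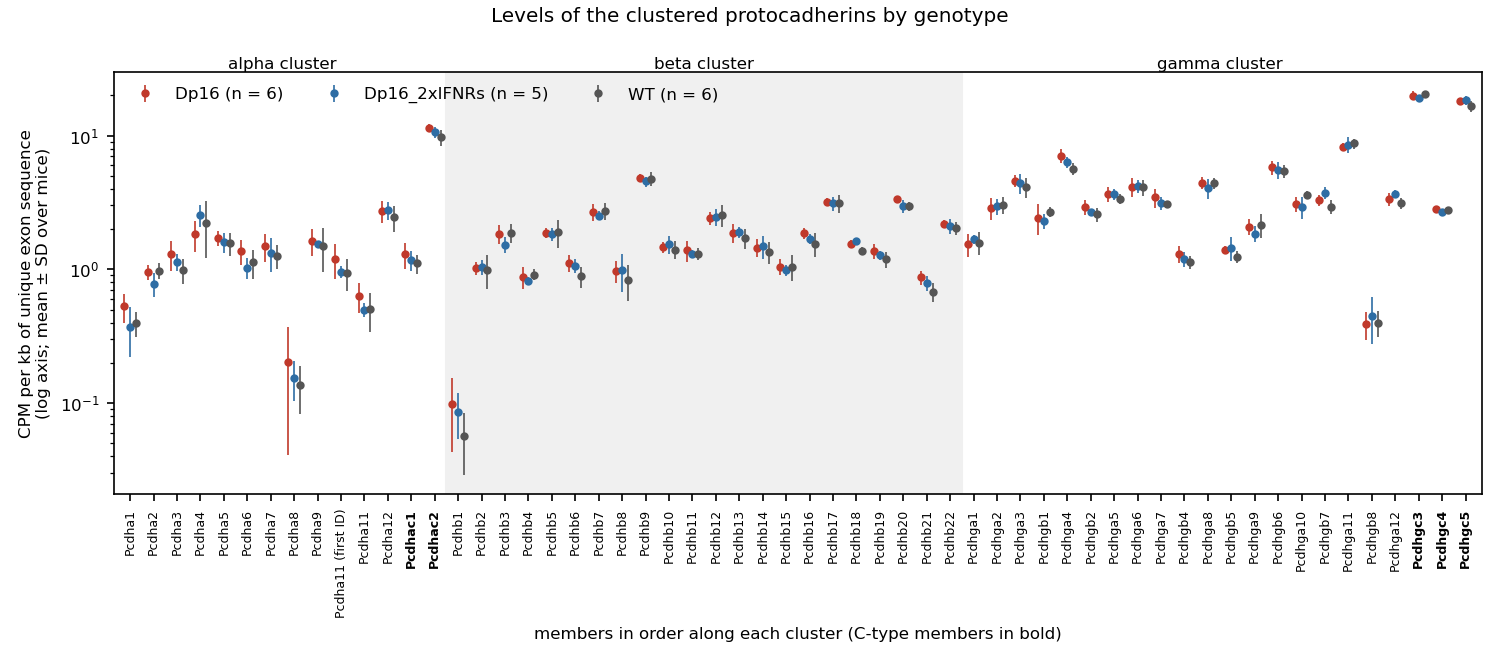
Level of each of the 58 members as CPM per kilobase of unique exon sequence (log axis), in order along the alpha, beta and gamma clusters, as mean ± SD over 6 Dp16, 5 Dp16_2xIFNRs and 6 WT mice. Pcdhac2, Pcdhgc3 and Pcdhgc5 stand above the rest, Pcdha8, Pcdhb1 and Pcdhgb8 are lowest in their clusters, and the 3 genotypes lie close together at nearly every member.

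The spread between mice, as edgeR's biological coefficient of variation, had a median of 14.0% over the 57 tested members, against 13.2% over the 14695 other tested genes at levels between those of the lowest and the highest member. It was 19.7% for alpha, 13.9% for beta and 12.2% for gamma members. It was 6.88% for Pcdhgc3 and 38.9% for Pcdha8.

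The question of the first comparison is whether the duplication goes with altered protocadherin levels. In Dp16 against WT no member was called at an adjusted p under 0.05 by edgeR's quasi-likelihood test (0 of 57, with 0.537% of all 18983 tested genes called). DESeq2 and limma-voom called 0 members as well. At an unadjusted p under 0.05 edgeR gave 9 members, 9 of them higher in Dp16 (15.8% of members, against 9.58% of all genes in either direction, 5.61% higher and 3.97% lower). They were Pcdha1, Pcdha3 and Pcdhac2 in the alpha, Pcdhb6, Pcdhb16, Pcdhb18, Pcdhb20 and Pcdhb21 in the beta, and Pcdhga4 in the gamma cluster. DESeq2 gave 8 such members and limma-voom 10, all of them higher in Dp16. No share of all genes at that threshold is given for these tools, so their counts cannot be set against a background. The median log2 fold change was 0.23 over alpha (12 of 14 above 0), 0.10 over beta (16 of 21) and 0.07 over gamma members (14 of 22), beside -0.01 over all tested genes. Without the 3 libraries low in choroid plexus markers these medians were 0.26, 0.13 and 0.11.

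Pcdhga4 had the smallest adjusted p of this comparison. Only 33.2% of its exon bases are its own, the lowest share of the gamma cluster, so its values are less certain. Its CPM ran from 9.47 to 13.2 with a median of 11 in Dp16, and from 7.30 to 10.1 with a median of 9.11 in WT. The groups overlapped, and Dp16 replicate 5 lay below WT replicate 6. The log2 fold change was 0.33 ± 0.09 (SE, edgeR adjusted p = 0.190).

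Pcdhac2 ran from 30.5 to 37.9 CPM with a median of 34.6 in Dp16, and from 25.1 to 34.6 with a median of 28.9 in WT. WT replicates 1, 2 and 6, at 30.5, 34.6 and 33.4 CPM, lay within the Dp16 range. The log2 fold change was 0.24 ± 0.08 (SE, edgeR adjusted p = 0.356).

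Among beta members Pcdhb21 and Pcdhb6 had the largest differences. Pcdhb21 ran from 2.95 to 4.19 CPM with a median of 3.77 in Dp16, and from 2.13 to 3.29 with a median of 3.05 in WT, and its log2 fold change was 0.37 ± 0.13 (SE, edgeR adjusted p = 0.325). The annotated ends of Pcdhb21 and Pcdhb22 overlap on the same strand, and 90.3% of the bases of Pcdhb21 are its own. Pcdhb6 ran from 3.66 to 5.31 CPM with a median of 4.04 in Dp16, and from 2.38 to 4.10 with a median of 3.39 in WT (log2 fold change 0.34 ± 0.13, edgeR adjusted p = 0.434).

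In the alpha cluster Pcdha3 averaged 3.21 ± 0.811 CPM in Dp16 and 2.44 ± 0.519 in WT (SD, n = 6 each), and its log2 fold change was 0.40 ± 0.17 (SE, edgeR adjusted p = 0.483). Pcdha1 ran from 1.00 to 1.88 CPM with a median of 1.23 in Dp16, and from 0.617 to 1.22 with a median of 1.00 in WT (log2 fold change 0.40 ± 0.19, edgeR adjusted p = 0.510). Pcdha8 had a log2 fold change of 0.44 ± 0.40 with an adjusted p of 0.774 in edgeR, from a median of 0.374 CPM in Dp16 and 0.365 in WT. It was 0.183 without Dp16 replicate 3 and 0.703 without WT replicate 6. Pcdha4 lay on the other side of 0, at -0.29 ± 0.28 (edgeR adjusted p = 0.790), with -0.0699 without WT replicate 3 and -0.434 without WT replicate 4, and so did Pcdha2, at -0.04 ± 0.15.

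The lowest log2 fold changes in the other clusters were small. They were -0.22 ± 0.11 at Pcdhga10 and -0.17 ± 0.13 at Pcdhgb1 in the gamma cluster, and -0.09 ± 0.12 at Pcdhb12 and -0.06 ± 0.12 at Pcdhb4 in the beta cluster (SE, edgeR adjusted p of 0.559 to 0.904). Every unique base of Pcdhga10 lies opposite the antisense gene Gm26672. The most abundant members differed little. Pcdhgc3 ran from 57.7 to 72.0 CPM with a median of 68.8 in Dp16 and from 63.0 to 72.4 with a median of 69.2 in WT, with a log2 fold change of -0.04 and an approximate 95% interval of -0.15 to 0.07. Pcdhgc5 ran from 77.3 to 91.8 CPM with a median of 81.6 in Dp16 and from 66.5 to 83.9 with a median of 79.4 in WT (log2 fold change 0.12, interval -0.02 to 0.25). The remaining C-type members were Pcdhac1 at 0.23 ± 0.16 and Pcdhgc4 at 0.04 ± 0.07.

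The size of difference that these libraries can bound depends on the cluster. The approximate 95% interval lay within a 1.5-fold change in either direction for 22 of 22 gamma, 18 of 21 beta and 6 of 14 alpha members. It lay within a 2-fold change for 56 of 57 members, and Pcdha8 was the exception.

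**Figure D2:**
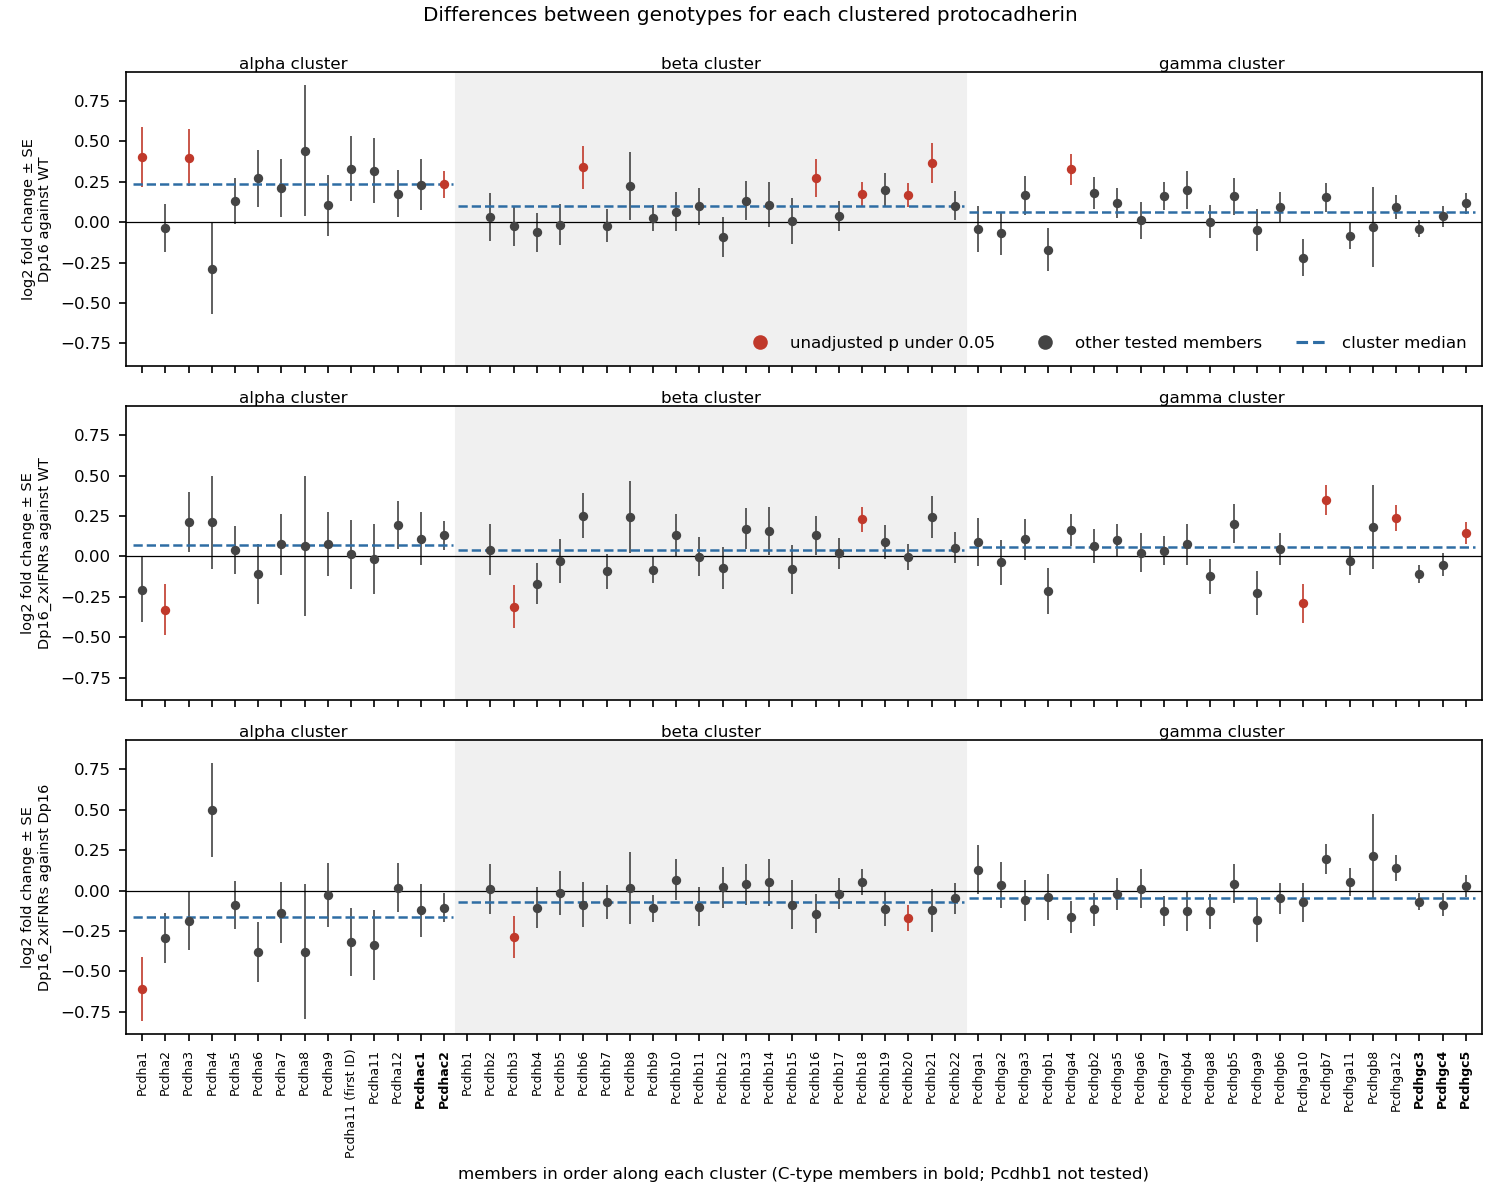
Log2 fold change ± SE of each tested member in Dp16 against WT (top), Dp16_2xIFNRs against WT (middle) and Dp16_2xIFNRs against Dp16 (bottom), in order along the clusters, with the cluster medians dashed and members at an unadjusted p under 0.05 in red. The 9 red members of the top panel lie above 0, and the alpha median is 0.23 there, 0.07 in the middle panel and -0.16 in the bottom panel.

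The second comparison sets Dp16_2xIFNRs against WT, with the same WT libraries. Again no member was called by edgeR (0 of 57, with 0.98% of all tested genes called). limma-voom called 0 members among 170 called genes, and DESeq2 called 1, Pcdhgb7, among 632 called genes. At an unadjusted p under 0.05 edgeR gave 7 members, or 12.3% against 17% of all genes. Of these, Pcdhb18, Pcdhga12, Pcdhgb7 and Pcdhgc5 were higher in Dp16_2xIFNRs (7.02% of members, 8.44% of all genes), and Pcdha2, Pcdhb3 and Pcdhga10 were lower (5.26%, against 8.6%). DESeq2 gave 5 and limma-voom 7, again without a share of all genes. The median log2 fold change was 0.07 over alpha (10 of 14 above 0), 0.04 over beta (12 of 21) and 0.06 over gamma members (14 of 22), beside 0.00 over all genes. When each library's length slope (the trend of its log2 level with gene length) was added as a covariate, the alpha median was 0.0014.

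Pcdhgb7 came nearest to a call. Its CPM in the 5 Dp16_2xIFNRs mice was 8.08, 10.1, 10.1, 10.6 and 9.40, against 6.12 to 8.51 with a median of 7.78 in WT. All but the first of the Dp16_2xIFNRs mice lay above every WT mouse. The log2 fold change was 0.35 ± 0.09 (SE, edgeR adjusted p = 0.0816). The call depended on the method and on single mice, with an adjusted p of 0.0211 by DESeq2, 0.0395 by edgeR without WT replicate 2 and 0.0377 by edgeR without Dp16_2xIFNRs replicate 1. Over all genes these settings called 632, 246 and 517 genes, in the same order. Over all alternatives the adjusted p of Pcdhgb7 ran from 0.0211 to 0.332. In Dp16 the same gene ran from 7.28 to 9.78 CPM.

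Pcdhb18 was the one member whose groups did not overlap in CPM, in any of the 3 comparisons. Over all tested genes the groups did not overlap for 1.2% with Dp16_2xIFNRs higher and 0.969% lower than WT, for 0.716% with Dp16 higher and 0.274% lower than WT, and for 0.258% with Dp16_2xIFNRs higher and 0.358% lower than Dp16. Pcdhb18 had 7.60, 7.81, 8.35, 8.42 and 8.53 CPM in Dp16_2xIFNRs, against 6.30 to 7.54 with a median of 6.90 in WT. The log2 fold change was 0.23 ± 0.08 (SE, edgeR adjusted p = 0.156). In Dp16 it ran from 6.76 to 8.48 CPM with a median of 7.95, which overlaps WT, and its log2 fold change against WT was 0.18 ± 0.07 (edgeR adjusted p = 0.472).

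Pcdhga12, a gamma A member, had 15.0, 16.4, 17.5, 15.9 and 18.0 CPM in Dp16_2xIFNRs, against 12.3 to 16.2 with a median of 14.0 in WT (log2 fold change 0.24 ± 0.08, edgeR adjusted p = 0.154). Pcdhgc5 had 75.1, 90.5, 89.1, 86.5 and 82.4 CPM in Dp16_2xIFNRs, against 66.5 to 83.9 with a median of 79.4 in WT. The groups overlapped, and its log2 fold change was 0.15 ± 0.07 (SE, edgeR adjusted p = 0.288). Pcdhgc3 had 67.1, 63.4, 62.3, 62.8 and 64.5 CPM in Dp16_2xIFNRs, against 63.0 to 72.4 with a median of 69.2 in WT, and its log2 fold change was -0.11 ± 0.05 (SE, edgeR adjusted p = 0.317). Thus the 2 most abundant members lay on opposite sides of 0, neither past the threshold.

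The other C-type members had log2 fold changes of 0.11 ± 0.17 (Pcdhac1), 0.13 ± 0.09 (Pcdhac2) and -0.05 ± 0.07 (Pcdhgc4), with edgeR adjusted p of 0.469 to 0.777. The lowest values were -0.33 ± 0.16 at Pcdha2 and -0.21 ± 0.20 at Pcdha1 in the alpha, -0.31 ± 0.13 at Pcdhb3 and -0.17 ± 0.13 at Pcdhb4 in the beta, and -0.29 ± 0.12 at Pcdhga10 and -0.23 ± 0.14 at Pcdhga9 in the gamma cluster (edgeR adjusted p of 0.225 to 0.638). The highest outside the gamma cluster were 0.25 ± 0.14 at Pcdhb6 and 0.24 ± 0.13 at Pcdhb21, and 0.21 at both Pcdha3 and Pcdha4. Intervals lay within a 1.5-fold change for 21 of 22 gamma, 19 of 21 beta and 9 of 14 alpha members.

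**Figure D3:**
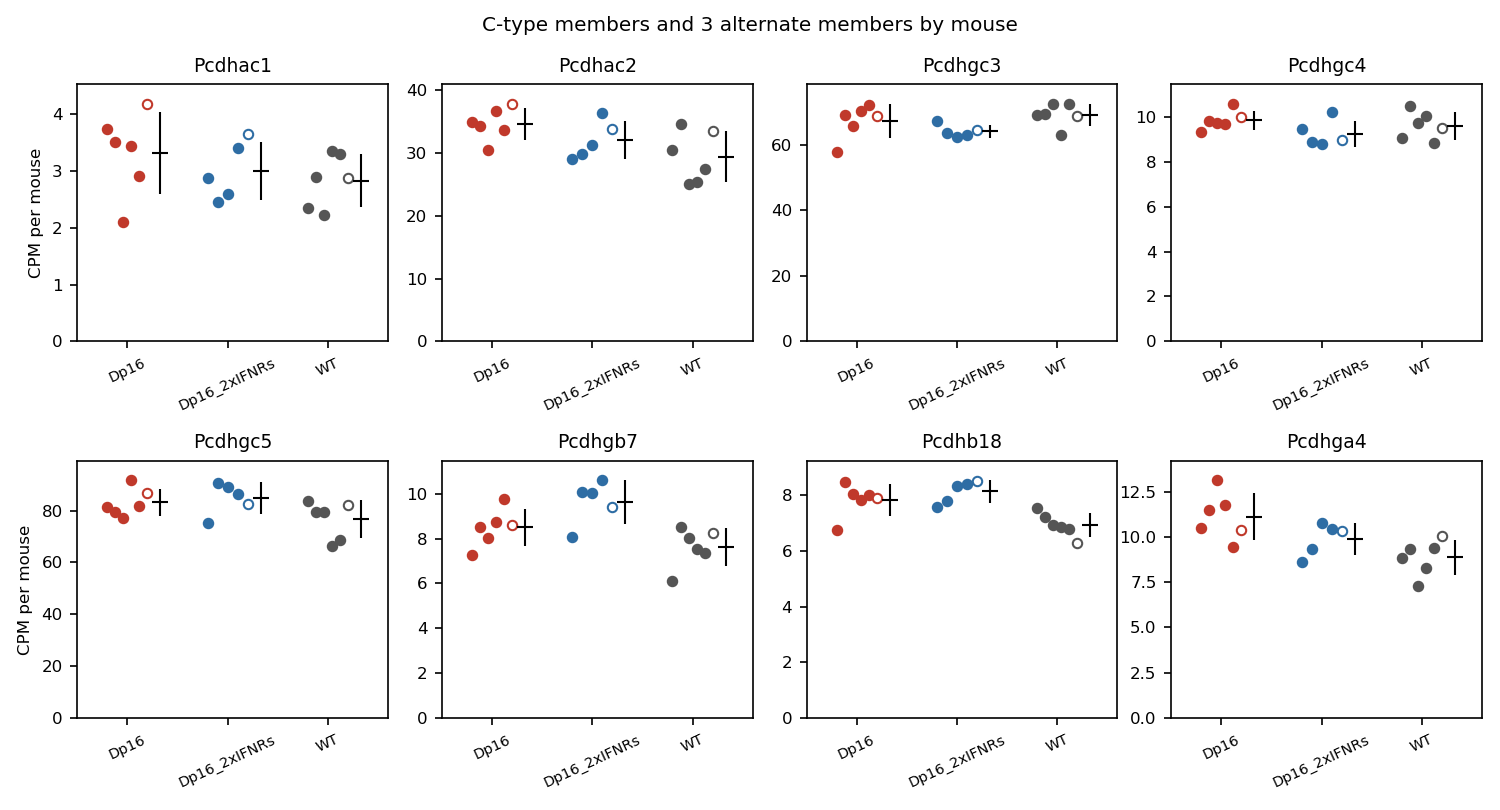
CPM of the 5 C-type members and of Pcdhgb7, Pcdhb18 and Pcdhga4 in each mouse, with Dp16 at the left, Dp16_2xIFNRs in the middle and WT at the right. Bars give mean ± SD, open circles are the 3 libraries low in choroid plexus markers, and Pcdhb18 is the one gene whose Dp16_2xIFNRs mice (7.60 to 8.53) all lie above the WT mice (6.30 to 7.54).

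The third comparison asks whether receptor dosage alters these genes on the duplication background. In Dp16_2xIFNRs against Dp16 no member was called by edgeR (0 of 57, with 0.0158% of all tested genes called), and DESeq2 and limma-voom called 0. At an unadjusted p under 0.05 edgeR gave 3 members, Pcdha1, Pcdhb3 and Pcdhb20, each lower in Dp16_2xIFNRs (5.26% of members, against 10.5% of all genes in either direction, 3.48% lower and 6.99% higher). DESeq2 and limma-voom gave 5 each, without a share of all genes. The median log2 fold change was -0.16 over alpha (2 of 14 above 0), -0.07 over beta (7 of 21) and -0.05 over gamma members (9 of 22), beside -0.01 over all genes. The Dp16 libraries serve in this comparison and in that of Dp16 against WT, so the values of both comparisons are not independent.

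Pcdha1 had 1.13, 1.29, 0.571, 0.477 and 1.15 CPM in Dp16_2xIFNRs, against 1.00 to 1.88 with a median of 1.23 in Dp16. The pair of low values were those of the 2 males of the group. The log2 fold change was -0.61 ± 0.20 (SE, edgeR adjusted p = 0.433). Pcdhb20 had 12.3, 9.10, 10.2, 10.5 and 10.4 CPM in Dp16_2xIFNRs, against 11 to 12.3 with a median of 12 in Dp16. All but the first of the Dp16_2xIFNRs mice lay below every Dp16 mouse, and the log2 fold change was -0.17 ± 0.08 (SE, edgeR adjusted p = 0.471). Pcdhb3 had 6.14, 5.70, 4.89, 5.24 and 6.93 CPM in Dp16_2xIFNRs, against 5.74 to 8.75 with a median of 6.88 in Dp16 (log2 fold change -0.29 ± 0.13, edgeR adjusted p = 0.465).

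The highest log2 fold change was 0.50 ± 0.29 at Pcdha4 (edgeR adjusted p = 0.542), the member with few unique bases, and Pcdha12 followed in the alpha cluster at 0.02 ± 0.15. In the gamma cluster Pcdhgb8 had 0.21 ± 0.26 and Pcdhgb7 0.19 ± 0.09, and in the beta cluster Pcdhb10 had 0.07 ± 0.13 and Pcdhb18 0.05 ± 0.08. Pcdha6 was at -0.38 ± 0.19, Pcdhga9 at -0.18 ± 0.14 and Pcdhga4 at -0.17 ± 0.10. The C-type members ran from -0.12 ± 0.16 (Pcdhac1) to 0.03 ± 0.07 (Pcdhgc5), with Pcdhac2 at -0.11 ± 0.09, Pcdhgc4 at -0.09 ± 0.07 and Pcdhgc3 at -0.07 ± 0.05 between them (SE, edgeR adjusted p of 0.649 to 0.897 over these 5). Intervals lay within a 1.5-fold change for 21 of 22 gamma, 21 of 21 beta and 7 of 14 alpha members, and reached past a 2-fold change for Pcdha1, Pcdha4 and Pcdha8.

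Summed over a cluster, the alpha level per mouse ran from 67.2 to 76.9 CPM with a median of 74.1 in Dp16. It was 60.6, 63.8, 63.9, 75.6 and 69.6 CPM in the Dp16_2xIFNRs mice, and 52.4 to 75.2 CPM with a median of 59.8 in WT. The Dp16 mice were all high, while WT replicates 2 and 6, at 72.5 and 75.2 CPM, reached the Dp16 level and the other 4 WT mice lay at 61.2 CPM or below. The groups therefore overlapped. As mean ± SD the alpha sum was 73.3 ± 3.38 CPM in Dp16, 66.7 ± 5.97 in Dp16_2xIFNRs and 62.9 ± 8.97 in WT, and without the 3 libraries low in choroid plexus markers it was 72.5 ± 3.20, 66.0 ± 6.63 and 60.5 ± 7.45. The beta sum was 163 ± 3.77 CPM in Dp16, 156 ± 10.1 in Dp16_2xIFNRs and 153 ± 14.7 in WT. Without these 3 libraries the beta sum was 163 ± 3.84, 153 ± 6.97 and 148 ± 9.10 CPM in Dp16, Dp16_2xIFNRs and WT, with an SD in WT of 14.7 CPM with WT replicate 6 and of 9.10 without it. The gamma sum was 340 ± 15.1, 335 ± 10.6 and 328 ± 17.5 CPM in Dp16, Dp16_2xIFNRs and WT, and 338 ± 16, 334 ± 12.1 and 324 ± 16.1 CPM without the 3 libraries. No test was run on these sums.

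The SD of the alpha and beta sums was smaller among Dp16 mice than among WT mice, with and without the 3 libraries low in choroid plexus markers. This did not hold in every subgroup. The gamma B sum had an SD of 4.92 CPM in Dp16 and 2.57 in WT, and of 5.51 and 2.20 without the 3 libraries. The C-type sum had 10.8 CPM in Dp16 and 11.3 in WT. The 12 alternate alpha members together had 34.6 to 36.1 CPM in Dp16 (35.3 ± 0.586), 28.7 to 35.9 CPM in Dp16_2xIFNRs (31.7 ± 2.73) and 25.1 to 38.9 CPM in WT (30.7 ± 5.17). Without the 3 libraries they had 35.4 ± 0.608, 31.5 ± 3.13 and 29.1 ± 3.67 CPM in Dp16, Dp16_2xIFNRs and WT. Over all libraries, counting error alone gives an SD of 1.05 CPM in Dp16, 1.00 in Dp16_2xIFNRs and 0.977 in WT. The SD between mice was 0.556 times the counting error in Dp16, 2.72 times in Dp16_2xIFNRs and 5.30 times in WT. For the beta sum the SD between mice was 1.67 times the counting error in Dp16, 4.53 times in Dp16_2xIFNRs and 6.74 times in WT. For the gamma sum it was 4.62, 3.23 and 5.48 times the counting error in Dp16, Dp16_2xIFNRs and WT. Whether the spreads differ was not tested.

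**Figure D4:**
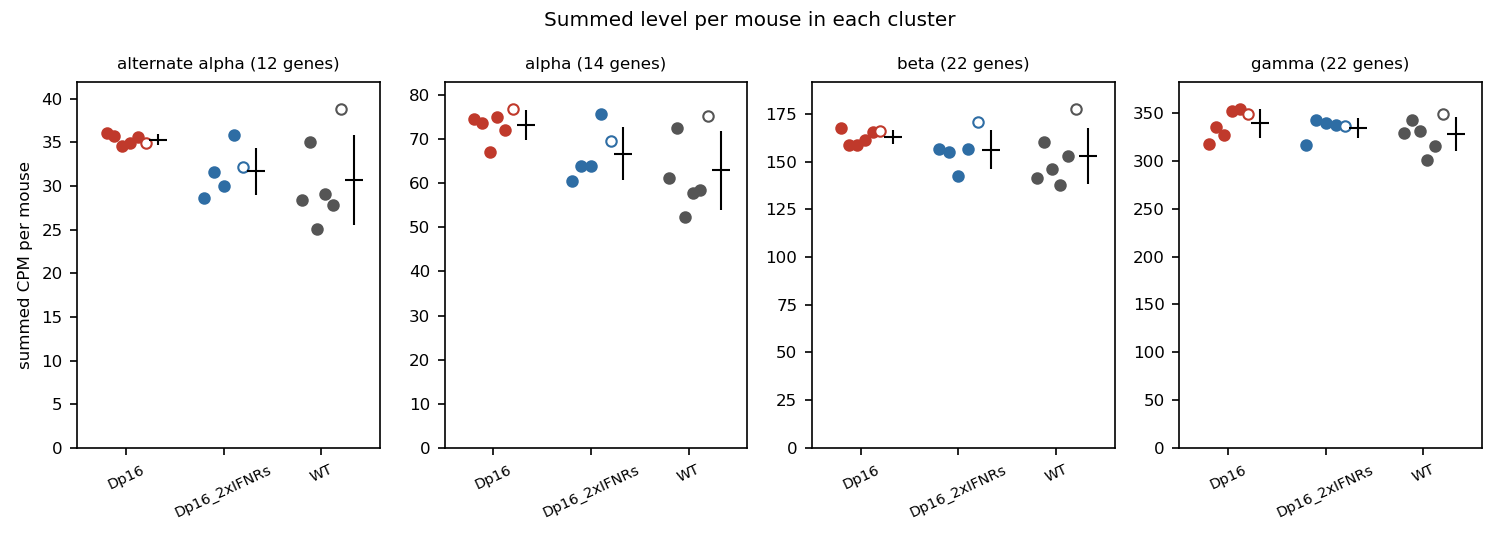
Summed CPM per mouse of the alternate alpha members and of the alpha, beta and gamma clusters, with Dp16 left, Dp16_2xIFNRs in the middle and WT right, bars giving mean ± SD. Open circles are the 3 libraries low in choroid plexus markers, and the alternate alpha values are tightly grouped in Dp16 (34.6 to 36.1) and spread in WT (25.1 to 38.9).

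In the heat map of deviations, whole mice stood above or below the mean. The number of the 57 tested members above their own mean over all mice was 32 to 40 in the Dp16 mice, 20 to 36 in the Dp16_2xIFNRs mice, and 12 to 43 in the WT mice. WT replicate 6 had 43 members above the mean and WT replicate 2 had 35, against 12 to 23 in the other 4 WT mice. Of 10 neuron markers 10 had a log2 fold change above 0 in Dp16 against WT, with a median of 0.03, 0 called by edgeR and 0 at an unadjusted p under 0.05. In Dp16_2xIFNRs against Dp16 the median was -0.07, with 1 of 10 above 0, 0 called by edgeR and 1 at an unadjusted p under 0.05. Their summed level was 10328 to 12593 CPM in Dp16, 9867 to 11646 in Dp16_2xIFNRs and 9258 to 12459 in WT. Interneuron markers had a median of 0.10 in Dp16 against WT (9 of 10 above 0) and of -0.11 in Dp16_2xIFNRs against Dp16 (0 of 10 above 0), with 0 called by edgeR in each and 2 and 0 at an unadjusted p under 0.05. Their summed level was 1051 to 1168 CPM in Dp16, 960 to 1131 in Dp16_2xIFNRs and 980 to 1132 in WT. The groups overlapped in both sums. The part of neuron content in the protocadherin values was not tested.

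**Figure D5:**
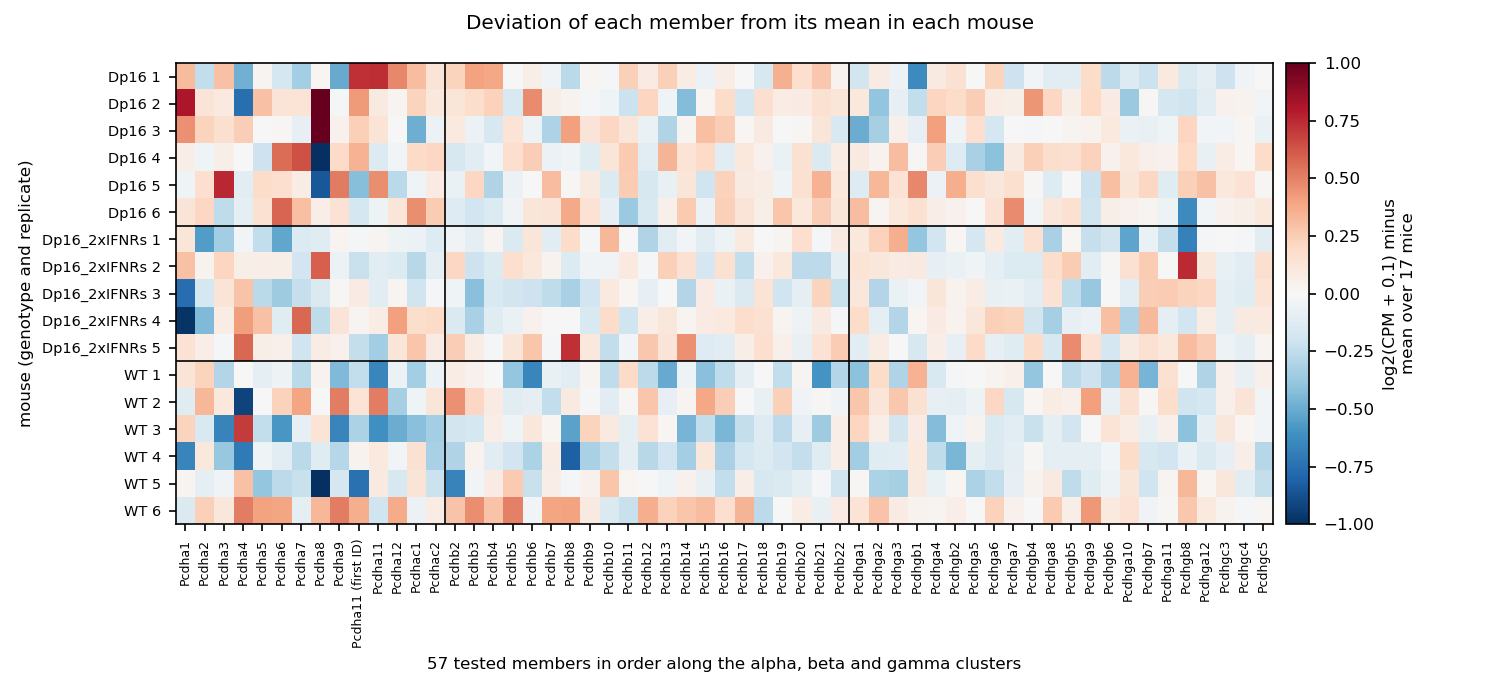
Deviation of each of the 57 tested members from its mean over the 17 mice, as log2(CPM + 0.1), in order along the clusters (columns) for each mouse (Dp16 at the top, WT at the bottom), with colours saturating at -1 and 1. WT replicate 4 is below the mean at most members (12 of 57 above it) and WT replicate 6 above it (43 of 57), and the strongest colours fall on members with few counts such as Pcdha8.

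Sex was tested in the same fit. No member was called in females against males by edgeR (0 of 57, with 0.0685% of all tested genes called), and 5 members were at an unadjusted p under 0.05 (8.77%, against 3.26% of all genes, 1.65% higher and 1.6% lower). Pcdha1, Pcdha8 and Pcdhb2 were higher and Pcdhga7 and Pcdhgb6 lower in females. Choroid plexus markers had a median log2 difference of 0.41 in females against males (10 of 10 above 0, 0 called by edgeR and 0 at an unadjusted p under 0.05). With their level as covariate edgeR called 0 members, and 5 were at an unadjusted p under 0.05, 4 of them higher in females. Without the 3 libraries low in these markers it called 0, and 3 were at that threshold, all higher in females. No share of all genes at that threshold is given for these 2 fits. The cause of these values was not tested. In the main fit Pcdha1 was at 0.63 ± 0.16 (log2, SE, edgeR adjusted p = 0.757), with 1.32, 1.88 and 1.46 CPM in Dp16 females and 1.09, 1.00 and 1.14 in Dp16 males. In Dp16_2xIFNRs it had 1.13, 1.29 and 1.15 CPM in females and 0.571 and 0.477 in males, and in WT 1.14, 0.946 and 1.22 in females and 0.617, 1.06 and 0.927 in males. The female and male values overlapped in WT and did not within Dp16 or Dp16_2xIFNRs. With 2 or 3 mice per sex in a group, and no share of all genes without such overlap computed, this carries no weight. The difference of the Dp16 effect between the sexes was called for no member (0 of 57, with 0% of all genes called). At an unadjusted p under 0.05 it gave 4 members (7.02%, against 2.98% of all genes), Pcdha12, Pcdhga2, Pcdhgb1 and Pcdhgc5. The same term for Dp16_2xIFNRs against WT was called for 0 of 57 members. It gave Pcdha1, Pcdhb5 and Pcdhgb5 at an unadjusted p under 0.05 (5.26% of members), and no share of all genes is given for it. DESeq2 and limma-voom were used for the genotype comparisons and not for sex.

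Genes that act on or with the array were listed as well. Of 14 genes of CTCF and cohesin, 13 were tested and 0 were called by edgeR in Dp16 against WT, with a median log2 fold change of 0.00 and 0 at an unadjusted p under 0.05. Among genes of at least 1 CPM the largest differences were -0.09 ± 0.09 at Hdac8, which recycles cohesin, and 0.07 ± 0.06 at Nipbl, its loader. Of 18 genes of DNA methylation and silencing 0 were called and 0 were at an unadjusted p under 0.05, with a median of -0.03. Dnmt3a, a DNA methyltransferase, and Tet1, which oxidises methylated cytosine, had the largest differences of this list at 1 CPM or above, both at -0.11.

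Partners of protocadherin signalling gave 0 called of 23, with a median of 0.04 and 1 at an unadjusted p under 0.05. That gene was Wasf3, a subunit of the WAVE actin-regulatory complex, at 0.15 ± 0.05 (SE, edgeR adjusted p = 0.317). Axin1, the Wnt pathway scaffold, was at -0.10 ± 0.06. Of 13 protocadherins and related cadherins outside the array 0 were called, and at 1 CPM or above the largest differences were Pcdh11x at -0.27 ± 0.13 and Pcdh18 at -0.25 ± 0.12 (edgeR adjusted p = 0.516 and 0.536). At an unadjusted p under 0.05 stood Pcdh11x and Cdhr1, the second at 0.24 ± 0.11.

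The neighbours of the array on chromosome 18 showed no call either. Of 25 flanking genes 24 were tested and 0 were called, with a median of -0.04 and 1 at an unadjusted p under 0.05, Tmco6 at -0.22 ± 0.09 (SE, edgeR adjusted p = 0.472). Dnd1, at 1.18 CPM on average, was at -0.59 ± 0.31. In Dp16_2xIFNRs against WT these 5 lists again had 0 called genes by edgeR. At an unadjusted p under 0.05 they had 2 of 13, 1 of 18, 2 of 23, 3 of 13 and 3 of 24 tested genes in the order given, against 17% of all genes. In Dp16_2xIFNRs against Dp16 they had 0 called, with 0, 2, 0, 1 and 3 at that threshold, against 10.5% of all genes. DESeq2 and limma-voom called 0 genes of these 5 lists in each comparison. At an unadjusted p under 0.05 DESeq2 gave 0 to 3 genes per list and limma-voom 0 to 4, without a share of all genes.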

How the data were processed

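RNA from hippocampus was sequenced from 17 mice. The authors deposited raw counts per gene and RPKM for the same libraries. The build GRCm38 and HISAT2 2.1.0, HTSeq 0.6.1, SAMtools 1.5, FastQC 0.11.5 and bcl2fastq are named, without roles, per the submitters' processing notes. The strand setting and the mode of counting are not given in the sources used here, so values of members with an overlapping or antisense gene are uncertain. The length implied by the deposited RPKM equals that of the longest transcript for 53 of 58 members, which includes shared constant exons, and RPKM was therefore not used for levels. Positions and unique exon bases came from GENCODE M21, whereas the authors' tables are named for M24 of the same build.

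The deposited counts entered edgeR 4.0.16 (R 4.3.3). After filterByExpr (minimum count 10) 18983 genes remained. Scaling was by TMM. All 17 libraries shared one quasi-likelihood fit on genotype and sex, and p-values were adjusted by Benjamini-Hochberg over all tested genes, with calls under 0.05. Intervals are the log2 fold change plus or minus the t quantile times its SE, and are approximate. DESeq2 1.42.0 and limma 3.58.1 served as alternatives. The fit was tested on simulated data for Dp16 against WT. It called 22% of genes with a 1.25-fold change, 72% at 1.5-fold and 96% at 2-fold. A member that differs by 1.25-fold or less could thus easily go uncalled. Members named are the C-type genes, in each cluster the highest and the lowest by level, and the 2 highest and 2 lowest by fold change in each comparison. Others, such as those at an unadjusted p under 0.05, were named after their values were seen. Other lists are represented by called genes and the 2 largest fold changes in Dp16 against WT among genes of at least 1 CPM. Members and lists were chosen with earlier results of these data known. Every library is a separate mouse, and the labels do not say whether mice shared litters. No sequences are printed.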

Additional observations from a re-analysis of the deposited data

Results flagged for a closer look

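A gap test on the highest and lowest mouse was applied to 102 combinations of a genotype with a named member or a cluster sum, and 3 of them had a mouse set apart from the rest of its group. Chance alone marks about 5% of such groups. Pcdhgb1 was at 8.19 CPM in WT replicate 1, with the other 5 WT mice between 6.59 and 7.14. Pcdhga12 was at 18.6 CPM in Dp16 replicate 5, with the other 5 Dp16 mice between 14.1 and 14.8. The summed gamma level was 317 CPM in Dp16_2xIFNRs replicate 1, with the other 4 mice of that group between 337 and 344.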

How the results depend on the processing

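The numbers of called members were the same under all alternatives but these. In Dp16_2xIFNRs against WT 1 member, Pcdhgb7, was called by DESeq2 (log2 fold change 0.348), at a threshold of 0.1, and on leaving out WT replicate 2 or Dp16_2xIFNRs replicate 1, so that leaving out 1 mouse gave 0 to 1 calls and a log2 fold change of Pcdhgb7 of 0.297 to 0.403. The 126 cluster medians under settings other than leaving out a mouse each moved by less than 1 SD between mice. That limit is wide beside medians near 0. It was met by the alpha median of 0.0014 with the length slope in Dp16_2xIFNRs against WT, so it does not show that a median kept its size. On leaving out 1 mouse the alpha median was 0.194 to 0.314 in Dp16 against WT and -0.0117 to 0.145 in Dp16_2xIFNRs against WT, the beta median -0.00931 to 0.0824 in Dp16_2xIFNRs against WT, and the gamma median -0.0941 to 0.00081 in Dp16_2xIFNRs against Dp16, so that these last 3 changed sign. Fold changes near 0 changed sign. Without the 3 libraries low in choroid plexus markers, an alternative chosen after seeing the data, Pcdhb4 was at 0.0142 and Pcdhb12 at 0.00238 in Dp16 against WT, and Pcdhac1 at -0.012 in Dp16_2xIFNRs against WT. In Dp16_2xIFNRs against Dp16, Pcdhgc5 was at -0.00586 with the length slope as covariate and Pcdha12 at -0.0118 with the series of the mouse identifier. Leaving out 1 mouse gave -0.0917 to 0.0325 for Pcdha2 and -0.142 to 0.00404 for Pcdhb4 in Dp16 against WT, and -0.0666 to 0.146 for Pcdha12, -0.0107 to 0.139 for Pcdhb10 and -0.0135 to 0.364 for Pcdhgb8 in Dp16_2xIFNRs against Dp16. The causes were not tested. Over all genes DESeq2 called 214, 632 and 6, against 102, 186 and 3 by edgeR, in Dp16 against WT, Dp16_2xIFNRs against WT and Dp16_2xIFNRs against Dp16. In Dp16_2xIFNRs against WT edgeR called 298 genes with the choroid plexus level as covariate and 100 with the length slope. It called 246 genes without WT replicate 2, 517 without Dp16_2xIFNRs replicate 1 and 474 at a threshold of 0.1.

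The correlations do not settle whether replicate numbers pair the mice. Deviations of mice with the same number correlated at a mean r of 0.0772 over 16 pairs (-0.216 to 0.471), against -0.0141 over 80 other pairs. Mice of different genotypes that share the second part of the mouse identifier had a mean r of 0.0126 over 5 pairs, against 0.000473 over 91 other pairs. With the replicate block 0 members were called in each comparison, with 8, 7 and 3 at an unadjusted p under 0.05 in Dp16 against WT, Dp16_2xIFNRs against WT and Dp16_2xIFNRs against Dp16. No share of all genes at that threshold is given for this setting. The alpha medians were 0.231, 0.111 and -0.127 in the same order.

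Depth limits the lowest members. Counts of Pcdhb1 were 0 to 14, and it was not tested. Counts of Pcdha8 stayed at 34 or below, and its interval reached past a 2-fold change in Dp16 against WT. Without molecular identifiers, read counts do not count molecules one by one, and the counting errors given cover counting alone.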

Other observations

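Other genes within the array gave values that no comparison above uses. BC037039, antisense to Pcdhgc3, was at -0.20 ± 0.08 (log2, SE) in Dp16 against WT (unadjusted p = 0.0214, edgeR adjusted p = 0.440) and at -0.05 ± 0.08 in Dp16_2xIFNRs against WT (adjusted p = 0.820). Gm26672, which runs opposite Pcdhga10, Pcdhgb7, Pcdhga11 and Pcdhga12, was at -0.19 ± 0.11 in Dp16 against WT and at -0.03 ± 0.11 in Dp16_2xIFNRs against WT (edgeR adjusted p = 0.594 and 0.935). Taf7, a general transcription factor gene between the beta and gamma clusters, was at -0.06 ± 0.10 and -0.12 ± 0.11 in the same comparisons (edgeR adjusted p = 0.884 and 0.604).

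Among cell type markers Fgfr3, an astrocyte receptor tyrosine kinase, fell by 0.26 in Dp16 and by 0.35 in Dp16_2xIFNRs against WT on the log2 scale (edgeR adjusted p = 0.0329 and 0.00251), as the one marker of the 70 listed that edgeR called. The 10 astrocyte markers as a list had a median log2 fold change of 0.01 in Dp16 against WT (6 of 10 above 0, 2 at an unadjusted p under 0.05) and of -0.03 in Dp16_2xIFNRs against WT (4 of 10 above 0, 3 at an unadjusted p under 0.05). DESeq2 also called Gfap and Olig1 in Dp16 and Pvalb in Dp16_2xIFNRs against WT. Olig1, which like App lies in the duplicated segment, did not stand for its list. The 10 oligodendrocyte markers had a median of -0.03 in Dp16 against WT (3 of 10 above 0). The 10 interneuron markers, with Pvalb among them, had a median of -0.03 in Dp16_2xIFNRs against WT (4 of 10 above 0).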
